A study of Mus musculus with 62 samples.

Results

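Chronic ethanol was compared with saline in the dorsal striatum (DS) of the mouse, in 7 of the 62 RNA sequencing libraries of the study. The members were chosen by their labels as all libraries of the DS from the chronic paradigm, 4 from mice given ethanol and 3 from mice given saline. The mice were male C57BL/6J animals of 8 to 10 weeks, an inbred strain with no engineered allele named in the labels. Chronic ethanol mice received 2 g/kg ethanol, as 20% ethanol in saline, by intraperitoneal injection each day for 10 days, and chronic saline mice received the same volume of saline on the same schedule. Tissue was taken 4 h after the last injection, punched from frozen coronal slices with a corer. Poly(A) RNA was sequenced with a directional kit, and each library came from a different mouse, named by its replicate number (saline 2, 3 and 6, ethanol 1, 4, 5 and 6). The p-values therefore measure the spread between mice, with 1 punched sample of the DS from each.

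The DS is the input nucleus of the basal ganglia for sensorimotor and associative cortex, and it is studied in alcohol use for its part in habit learning. Most of its neurons are GABAergic spiny projection neurons, of a direct pathway class that carries the dopamine receptor Drd1 and an indirect pathway class that carries Drd2. They receive glutamate from cortex and thalamus and dopamine from the midbrain, and cholinergic and GABAergic interneurons make up most of the rest. The cortex lies directly over the DS, with only the white matter of the corpus callosum and external capsule between them, so a punch can take up cells of the deepest cortical layers.

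The 6 complete libraries held 10437257 to 16018549 counts on genes. Saline replicate 2 held 8149628 counts, with 0 on chromosomes 7, 8, 9, X and Y and on the mitochondrial genome, and its last gene with a count on chromosome 6 starts at position 22875501 (GRCm39). Genes on chromosomes 1 to 5 and 10 to 19 were therefore compared over all 7 libraries, and all other genes over 6 libraries, with 2 saline mice. Levels are given as CPM, the count of a gene relative to the TMM-scaled total of its library on the chromosomes complete in every library. In the complete libraries, 8.85% to 11.6% of counts were mitochondrial.

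The leading markers of striatal projection neurons were far above their cortical level. Drd1, the receptor of the direct pathway, averaged 302 CPM in chronic saline DS against 9.84 CPM in saline cortex, and Drd2, the receptor of the indirect pathway, 258 CPM against 4.77 CPM. Adora2a, the adenosine receptor of the same pathway, stood at 319.98 CPM against 7.30 CPM, and Rgs9, a regulator of dopamine receptor signalling, at 621 CPM against 17.4 CPM. Other listed markers set the tissues less apart, with Eya1, of the direct pathway, at 12.8 against 11.1 CPM and Ptprm, of the indirect pathway, at 60.5 against 76.5 CPM. The cortex libraries came from another kit and bear another batch label, and levels set against them carry that limit, while all 7 chronic DS libraries bear the same batch label. Whether saline and ethanol tissue was punched in the same session is not given in the sources used here.

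Genes of pallial excitatory neurons, the glutamatergic neurons of cortex and hippocampus that the striatum lacks, were present in every library and higher in saline. The measure was the median over the 8 genes of an 11-gene list that lie on complete chromosomes, each as a percent of its mean in the saline cortex. Saline replicates 2, 3 and 6 stood at 21.7%, 24.6% and 15.6% of the cortical level, and ethanol replicates 1, 4, 5 and 6 at 5.54%, 8.96%, 6.32% and 1.58%. Every saline library was above every ethanol library. The means were 20.6% ± 4.61 (SD, n = 3) and 5.60% ± 3.05 (SD, n = 4), and the difference gave p = 0.0286 in a two-sided exact permutation test, the smallest p that the 35 assignments of the mice allow. As the mean log2 CPM of the same genes it gave p = 0.0571 in the same exact permutation test, and the list was chosen with earlier results of these data known. In bulk tissue, fewer cells of a type and less RNA per cell cannot be told apart.

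**Figure D1:**
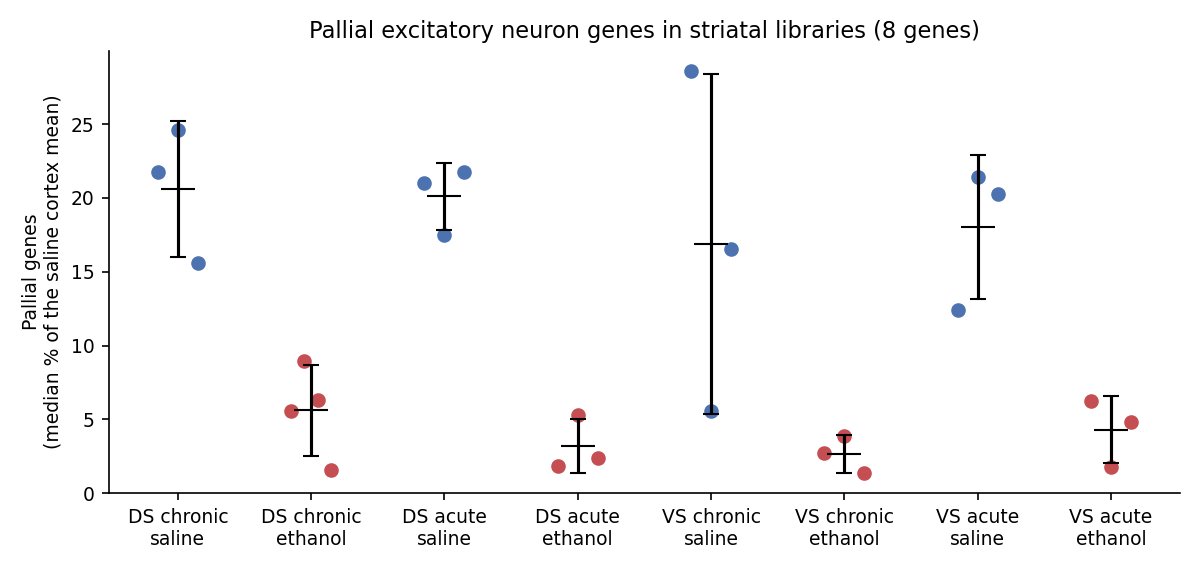
Level of 8 pallial excitatory neuron genes in each striatal library (points), as the median percent of the saline cortex mean, with group mean ± SD (black), for the DS and the ventral striatum (VS). The chronic saline DS libraries lie between 15.6% and 24.6%, and the chronic ethanol DS libraries between 1.58% and 8.96%.

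The same order was present in the acute DS libraries, from mice given 1 injection, where saline averaged 20.1% ± 2.28 (SD, n = 3) and ethanol 3.17% ± 1.84 (SD, n = 3). It was also present in the VS, with means of 16.9% ± 11.5 in chronic saline and 2.66% ± 1.28 in chronic ethanol (SD, n = 3 each). Chronic saline VS ranged from 5.56% to 28.6%. By their labels, most of these VS libraries come from the same mice as the chronic DS libraries. No member of the list was at 0 in every chronic DS library. The summed level of the 8 genes was 179, 251 and 138 CPM in the saline libraries and 55.7, 91.5, 68.7 and 39.6 CPM in the ethanol libraries. Cux2, a transcription factor of upper-layer neurons and the gene of the 8 with the most counts over the 7 libraries together, overlapped between the groups, with 29.9, 25.2 and 22.9 CPM in saline and 23.2, 23.7, 24.5 and 12.3 CPM in ethanol. In chronic saline alone, Tbr1, Neurod2 and Fezf2 averaged more than Cux2, at 42.0, 39.6 and 26.8 CPM against 26.0 CPM.

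Of all 11 list members, 11 were lower in ethanol, with a median log2 fold change of -2.33, against -0.02 over the 20077 genes tested. Slc17a7, which encodes the vesicular glutamate transporter of cortical neurons, stood at 622 and 411 CPM in saline replicates 3 and 6 and at 26.6, 163, 54.3 and 18.0 CPM in ethanol replicates 1, 4, 5 and 6. The groups did not overlap, and the log2 fold change was -2.99 ± 0.68 (SE; edgeR FDR = 0.291). Neurod6, a transcription factor of pallial neurons, stood at 72.8 and 99.3 CPM in these saline libraries and at 1.30, 13.9, 4.54 and 2.00 CPM in the ethanol libraries. Fezf2, which specifies the deep-layer neurons that project below the cortex, stood at 17.5, 50.5 and 12.5 CPM in saline and at 3.25, 7.81, 6.36 and 6.01 CPM in ethanol. All 3 transcripts were lower in every ethanol library than in any saline library.

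Genes of the cortical layers, chosen after the values were seen, are given as a description. Ccn2 and Cplx3, which mark the deepest cortical neurons, averaged 135% and 83.5% of the saline cortex in saline DS and 34.1% and 15.2% in ethanol DS. Nxph3, a secreted ligand of neurexins from deep layers, averaged 202% and 39.9%, and Rprm, a gene of corticothalamic neurons, 62.3% and 30.7%. The saline mice spread widely for Ccn2, at 22.6 ± 14.4 CPM, and for Nxph3, at 34.2 ± 30.3 CPM (SD, n = 3). The saline mean of Cplx3 rests on 2 libraries. Of the upper-layer genes, Otof averaged 70.7% in saline and 92.0% in ethanol and the other 4 lay close together in the treatments, with Cux2 at 10.4% and 8.54%, Rasgrf2 at 15.6% and 12.6%, Lamp5 at 27.8% and 30.3% and Rorb at 26.2% and 24.5%. Nxph4 and Syt6, also listed for deep layers, were above their cortical level in both treatments, Nxph4 at 377% in saline and 184% in ethanol and Syt6 at 839.6% and 1205%.

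**Figure D2:**
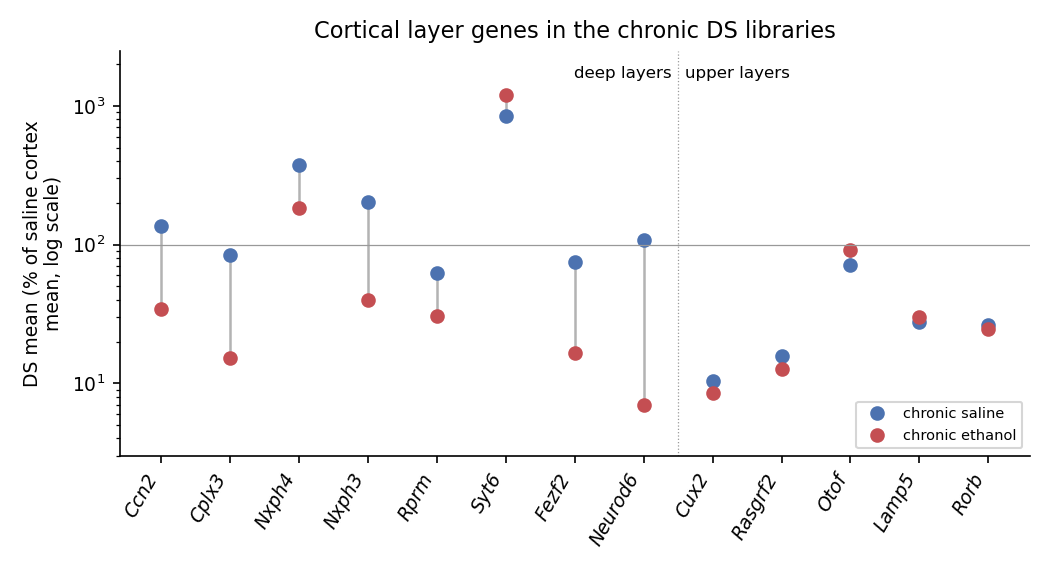
Mean DS level of 8 deep-layer and 5 upper-layer cortical genes as a percent of their saline cortex mean (log scale), in chronic saline (blue) and chronic ethanol (red). Genes listed for deep layers other than Syt6 were lower in ethanol, for example Fezf2 at 16.6% against 74.3% in saline, while Cux2, Lamp5 and Rorb lay close together. Neurod6, listed with them but introduced above as a gene of pallial neurons, stood at 6.94% against 109% in 2 saline libraries.

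The main question of the comparison was which genes differ after 10 days of ethanol. None of the 20077 genes tested passed an FDR of 0.1 with edgeR's quasi-likelihood test (0 genes, 0%), and the smallest FDR was 0.101, shared by 10 genes. At an unadjusted p under 0.05 there were 1557 genes (7.76% of those tested), 772 higher (3.85%) and 785 lower in ethanol (3.91%). DESeq2, the tool of the study, called 216 genes (1.08%), 75 higher (0.374%) and 141 lower (0.702%). The number of differentially expressed genes (DEGs) therefore differed between the tools, and edgeR itself called 222 when all 4 DS groups shared 1 estimate of the spread. Without saline replicate 6, ethanol replicate 4 or saline replicate 3, edgeR called 51, 20 and 2. Genes whose groups did not overlap numbered 1162 higher (5.79%) and 1049 lower in ethanol (5.22%).

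The differences followed the cortical level of the genes. Of the 141 genes that DESeq2 called lower, 105 (74.5%) were at least 2-fold higher in the saline cortex than in the acute DS libraries, saline and ethanol together, against 11.9% of all genes tested. Of the 75 called higher, 45 (60%) were at least 2-fold lower in cortex, against 9.98% of all genes, and 0 were at least 2-fold higher there. The median log2 fold change went from 0.25 for the 623 genes at least 4-fold lower in cortex to 0.07 for those 2- to 4-fold lower, -0.01 within 2-fold, -0.22 for those 2- to 4-fold higher and -0.27 for those at least 4-fold higher. Within 2-fold, 30 genes were called higher and 35 lower by DESeq2 (0.415% of 15675), and 5.83% had an unadjusted p under 0.05. Ccn2 and Nxph3, given above for deep cortical layers, lay in this class, at log2 ratios of -0.03 and -0.06. With the cortex set against the acute ethanol DS libraries alone, the class held 27 genes called higher and 18 lower (0.297% of 15171). That setting was chosen after seeing the data.

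The pallial level was also entered in the fit as a covariate. EdgeR then called 0 genes, and the share at an unadjusted p under 0.05 was 2.11%. Because the pallial level separates the groups, ethanol and this level cannot be fully told apart in 7 libraries. For many of the genes and lists below, the log2 fold change with the covariate is also given.

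**Figure D3:**
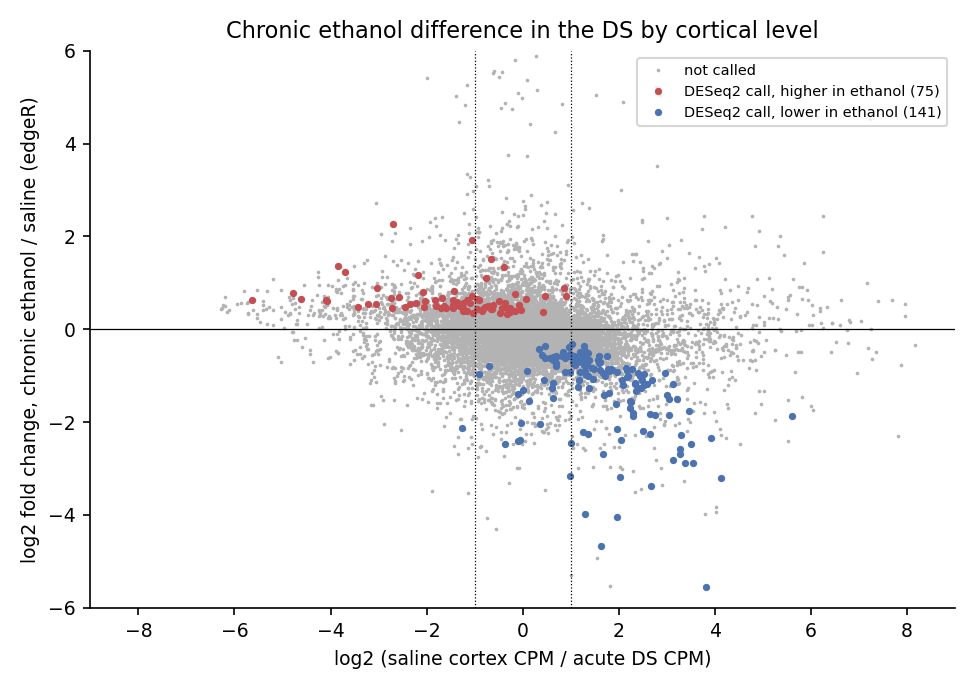
The log2 fold change of chronic ethanol over saline in the DS (edgeR) against the log2 ratio of the saline cortex to the acute DS libraries, for the 20077 genes tested, of which 3 lie outside the plotted range. The 75 genes called higher by DESeq2 (red) all lie left of the right-hand dotted line and most of the 141 called lower (blue) lie right of it, the dotted lines marking a 2-fold ratio in either direction.

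The 10 genes with the smallest p among those higher in ethanol without overlap are given first. Grm4 (ENSMUSG00000063239, chr17:27641361-27740377, minus strand) encodes mGluR4, a presynaptic glutamate receptor that lowers transmitter release. It stood at 62.5, 65.0 and 68.9 CPM in saline and at 109, 110.1, 94.4 and 115 CPM in ethanol, with no overlap. Its log2 fold change was 0.71 ± 0.10 (SE; edgeR FDR = 0.101, DESeq2 FDR = 1.85e-05), and 0.57 with the pallial covariate. In saline cortex Grm4 averaged 44.6 CPM, below either DS group.

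Kcnn3 (chr3:89427471-89582439, plus strand) encodes SK3, a small-conductance calcium-activated potassium channel. The saline libraries held 57.9, 65.7 and 57.4 CPM and the ethanol libraries 95.8, 87.4, 91.6 and 94.7 CPM. This was a log2 fold change of 0.61 ± 0.10 (SE; edgeR FDR = 0.128), and 0.59 with the covariate. Unc13c (chr9:73386704-73876248, minus strand) encodes Munc13-3, which primes synaptic vesicles for release. It stood at 166 and 206 CPM in the 2 saline libraries complete for chromosome 9 and at 329, 349, 304 and 403 CPM in ethanol. Its log2 fold change of 0.89 ± 0.14 (SE; edgeR FDR = 0.181) was 0.61 with the covariate, and Unc13c averaged 37.9 CPM in cortex.

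Gad2 encodes GAD65, the form of glutamate decarboxylase that supplies GABA at terminals. Its level was 569, 514 and 479 CPM in saline and 687, 751, 742 and 769.9 CPM in ethanol, a log2 fold change of 0.50 ± 0.10 (SE; edgeR FDR = 0.237). Akap5, the anchor that holds protein kinase A and calcineurin at the postsynapse, stood at 266, 276 and 294 CPM in saline and at 377, 433, 365 and 471 CPM in ethanol. Pdxk, pyridoxal kinase, which makes the cofactor of GABA and monoamine synthesis, stood at 209, 216 and 194 CPM in saline and at 265, 279.999, 279.853 and 296 CPM in ethanol. Every ethanol library was above every saline library, which the choice of these genes required.

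The other 4 genes of this direction were Dclk3, a kinase enriched in striatum, Cntnap3, a neurexin-family adhesion protein, Pdzd2, a protein of several PDZ domains, and Slc4a11, a transporter of the bicarbonate family. Their log2 fold changes were 0.58, 0.68, 0.59 and 1.16, with edgeR FDRs of 0.232, 0.257, 0.266 and 0.269 and no overlap between the groups. Slc4a11 had low counts, with 5.69 ± 1.46 CPM in saline (SD, n = 3) and 12.7 ± 1.83 CPM in ethanol (SD, n = 4). With the covariate the values were 0.65, 1.05, 0.82 and 1.41. All 10 genes of this direction had a lower level in saline cortex than in acute DS, from a log2 ratio of -0.64 for Pdxk to -3.03 for Unc13c. DESeq2 called all 10.

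Among the genes lower in ethanol, the smallest p belonged to Nptxr (ENSMUSG00000022421, chr15:79670552-79688967, minus strand), the neuronal pentraxin receptor, which clusters AMPA receptors at synapses. Saline libraries held 417, 291 and 351 CPM and ethanol libraries 142, 182, 161 and 126 CPM. The log2 fold change was -1.21 ± 0.15 (SE; edgeR FDR = 0.101, DESeq2 FDR = 1.42e-09), and -0.87 with the covariate. Nptxr was 2.53 log2 units higher in saline cortex than in acute DS.

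Gabra5 (ENSMUSG00000055078) encodes the alpha5 subunit of GABA-A receptors, which mediates tonic inhibition outside synapses. It stood at 71.3 and 94.3 CPM in the 2 saline libraries complete for chromosome 7 and at 36.5, 42.5, 34.3 and 35.1 CPM in ethanol. The log2 fold change was -1.16 ± 0.14 (SE; edgeR FDR = 0.101). With the covariate it was -1.17, at an unadjusted edgeR p of 0.00287 and an FDR of 0.9999. Its level in cortex was within 2-fold of that in acute DS, at a log2 ratio of 0.64. The log2 ratio of Epha5 was 0.69, and that of Gpr22 was 0.98, only just within 2-fold. Gpr22, an orphan receptor, stood at 46.1, 45.1 and 49.9 CPM in saline and at 25.1, 28.9, 24.2 and 21.5 CPM in ethanol. Epha5, an ephrin receptor of axon guidance, stood at 93.4, 100.1 and 91.1 CPM in saline and at 54.6, 66.5, 57.0 and 50.99 CPM in ethanol. Their log2 fold changes were -0.92 ± 0.13 and -0.73 ± 0.11 (SE), and -0.72 and -0.37 with the covariate.

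Olfm1, a secreted olfactomedin of axons and synapses, stood at 456, 374 and 320.2 CPM in saline and at 152, 204, 187 and 131 CPM in ethanol. Its log2 fold change was -1.19 without and -0.50 with the covariate. Mfsd4a, a member of the major facilitator transporters, stood at 37.2, 29.2 and 23.3 CPM in saline and at 7.36, 9.83, 11.1 and 4.89 CPM in ethanol, a log2 fold change of -1.85 without and -0.84 with the covariate. Tmem178, a membrane protein of the endoplasmic reticulum, went from -1.61 to -0.53 in the same way. These 3 differences were thus smaller once the pallial level of the libraries was in the fit.

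Mical2, a flavoprotein that oxidises actin, had a log2 fold change of -0.96 without and -0.86 with the covariate. For Khdrbs3, which encodes the splicing factor SLM2, the values were -0.76 and -0.51, and for Cplx3, a complexin of the deepest cortical neurons, -2.45 and -2.16. Cplx3 was low throughout, with 11.6 and 7.68 CPM in saline and 2.17, 1.16, 2.36 and 1.25 CPM in ethanol. All 10 genes of this direction were more abundant in saline cortex than in acute DS, and DESeq2 called all 10. The 20 genes were taken from those whose groups do not overlap, so their separation follows from the choice.

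**Figure D4:**
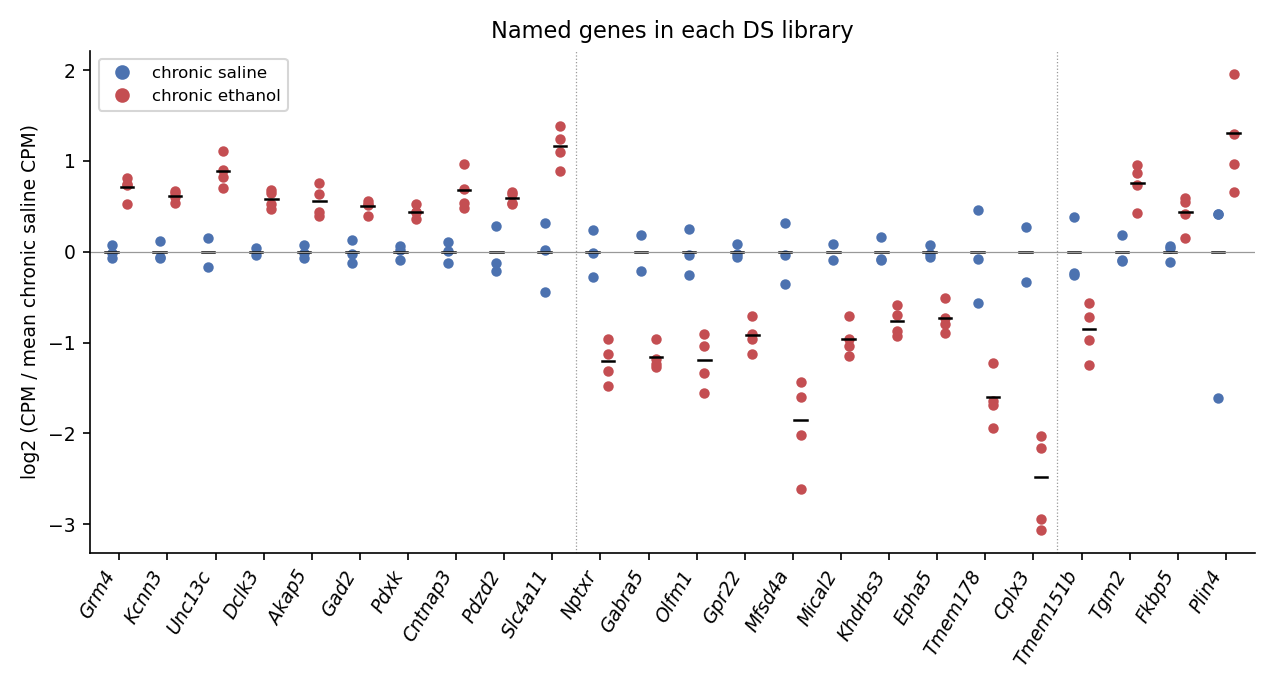
CPM of each named gene in each chronic DS library as log2 of its ratio to the chronic saline mean (points), with group means (black bars). The first 10 genes were higher in ethanol, the next 10 lower and the last 4 are those that the study followed across regions; the first 20 were chosen among genes whose groups do not overlap, and the last 4 did not overlap either.

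Tgm2, Fkbp5, Plin4 and Tmem151b are the genes that the study followed over the regions after chronic ethanol. Tgm2 encodes transglutaminase 2, which crosslinks proteins and is induced by steroids and retinoids. It stood at 14.3, 14.2 and 17.3 CPM in saline and at 27.9, 29.5, 25.4 and 20.5 CPM in ethanol, with no overlap. The log2 fold change was 0.76 ± 0.17 (SE; edgeR FDR = 0.270, DESeq2 FDR = 0.0219), and 0.90 with the covariate. Tgm2 was within 2-fold between cortex and acute DS, at a log2 ratio of -0.15.

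Fkbp5 encodes the co-chaperone FKBP51, a glucocorticoid target that restrains the glucocorticoid receptor. It stood at 65.3, 58.6 and 66.1 CPM in saline and at 84.8, 95.7, 70.3 and 93.0 CPM in ethanol, a log2 fold change of 0.44 ± 0.12 (SE; edgeR FDR = 0.382, DESeq2 FDR = 0.156). Plin4, a lipid droplet coat protein, stood at 2.96, 12.1 and 12.1 CPM in saline and at 35.2, 22.3, 17.6 and 14.3 CPM in ethanol, a log2 fold change of 1.31 ± 0.45 (SE; edgeR FDR = 0.521). The groups did not overlap for either gene, although neither edgeR nor DESeq2 called them with the low-count filter; without it edgeR called Plin4 (FDR = 0.0629). Tmem151b, a little-studied membrane protein, stood at 65.2, 101.4 and 66.1 CPM in saline and at 39.4, 52.4, 47.2 and 32.6 CPM in ethanol, a log2 fold change of -0.86 ± 0.19 (SE; edgeR FDR = 0.270, DESeq2 FDR = 0.0129). With the covariate it was -0.02, and Tmem151b was 1.83 log2 units higher in cortex than in acute DS.

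Markers of striatal projection neurons leaned higher in ethanol, with 0 edgeR calls and 5 genes higher without overlap, against 5.79% of all genes. Of 15 genes, 15 had a log2 fold change above 0, against 46.8% of all genes tested, with a median of 0.46. At an unadjusted p under 0.05 there were 12 higher and 0 lower, against 3.85% and 3.91% of all genes, and DESeq2 called 3 higher, against 0.374%. Gng7, a G protein subunit that couples Drd1 and Adora2a to adenylyl cyclase, stood at 1226, 1026 and 1357 CPM in saline and at 1672, 1913, 1483 and 2231 CPM in ethanol, a log2 fold change of 0.60 ± 0.16 (SE; DESeq2 FDR = 0.0244). Adcy5, the cyclase itself, stood at 1373, 1283 and 1673 CPM in saline and at 1936, 2385, 1725 and 2321 CPM in ethanol. Ppp1r1b, which encodes DARPP-32, the phosphatase inhibitor at the centre of dopamine signalling, overlapped between the groups, with a log2 fold change of 0.33 ± 0.17 (SE; edgeR FDR = 0.688).

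The summed level of the 11 projection neuron markers on complete chromosomes overlapped between the groups. It was 11785, 10119.8 and 13789 CPM in saline and 14777, 17599.7, 12961 and 19640.2 CPM in ethanol. With the pallial covariate the median log2 fold change of the list was 0.17, and 0 of the 15 had an unadjusted p under 0.05, against 2.11% of all genes in that fit. The pallial level thus moved with this list, in the opposite direction, and its part in the result was not tested further.

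Of 9 direct pathway genes, 8 were higher in ethanol, with a median log2 fold change of 0.37 and 3 higher at an unadjusted p under 0.05, against 3.85% of all genes. Drd1 stood at 296, 259 and 350.3 CPM in saline and at 369, 479, 339 and 547 CPM in ethanol, with ethanol replicate 5 inside the saline range, a log2 fold change of 0.52 ± 0.17 (SE; edgeR FDR = 0.494). Of 8 indirect pathway genes, 8 were higher, with a median of 0.33 and 5 at that p. With the covariate the medians of the direct and indirect lists were 0.14 and 0.20. Gpr52, a constitutively active receptor coupled to Gs, had the smallest p, with a log2 fold change of 0.78 ± 0.22 (SE; DESeq2 FDR = 0.0708). Drd2 stood at 220.4 and 295 CPM in the 2 saline libraries and at 341, 418, 276 and 453 CPM in ethanol. Neither tool called Drd1 or Drd2.

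The dopamine signalling list, 21 genes tested of 23 from receptors to degrading enzymes, had 19 genes above 0 and a median log2 fold change of 0.43. Several members, such as Gng7, Adcy5 and Rgs9, are also in the projection neuron list, and 11 of the 21 had an unadjusted p under 0.05, all higher, against 3.85% of all genes. With the covariate the list median was 0.17 and 0 members had an unadjusted p under 0.05, against 2.11% of all genes. Of the 8 opioid peptides and receptors, 6 were higher, with a median of 0.39. Oprk1, the kappa receptor for dynorphin, stood at 33.5, 31.9 and 35.7 CPM in saline and at 54.4, 71.4, 40.6 and 44.9 CPM in ethanol, with no overlap and a log2 fold change of 0.65 ± 0.19 (SE; edgeR FDR = 0.399). With the covariate Oprk1 was at 0.97. Pdyn, the dynorphin precursor, overlapped between the groups, at 0.46 ± 0.20 (SE; edgeR FDR = 0.636), and Penk, the enkephalin precursor, at 0.31 ± 0.19 (SE; edgeR FDR = 0.724).

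Subunits of the GABA-A receptor, a target of ethanol, were split. Of 14 subunits, 8 were higher and 6 lower, with a median log2 fold change of 0.16. Gabra5 was the only subunit that DESeq2 called, where it called 1.08% of all genes and 0.702% as lower. Gabrd, the delta subunit of extrasynaptic receptors, stood at 144, 112 and 113.3 CPM in saline and at 167, 155, 141 and 167 CPM in ethanol, a log2 fold change of 0.36 ± 0.12 (SE; edgeR FDR = 0.494), with ethanol replicate 5 below the highest saline library. Gabra4, the alpha subunit that pairs with delta in the striatum, overlapped, at 0.28 ± 0.15 (SE; edgeR FDR = 0.688). With the covariate Gabrd was at 0.22 and Gabra4 at -0.08. Gabrg3, a gamma subunit, did not overlap, at 0.28 ± 0.11 (SE; edgeR FDR = 0.609).

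Of 18 ionotropic glutamate receptor subunits, 12 were higher and 6 lower, with a median of 0.15. The kainate receptor subunit Grik4 was lower, at 21.2 and 26.6 CPM in saline and 12.2, 15.3, 14.0 and 8.77 CPM in ethanol (log2 fold change -0.93 ± 0.23, SE; DESeq2 FDR = 0.0724). Grik2, another kainate subunit, stood at 129, 138 and 151 CPM in saline and 191, 203, 157 and 187 CPM in ethanol (0.40 ± 0.11, SE; edgeR FDR = 0.382), and neither tool called it. Of 7 metabotropic receptors, 5 were higher, with a median of 0.18. Grm5, the group I receptor of projection neurons, stood at 461 and 487 CPM in saline and at 549, 622, 573 and 652 CPM in ethanol, with no overlap. Its log2 fold change was 0.33 ± 0.10 (SE; edgeR FDR = 0.446).

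Of 8 endocannabinoid genes, 6 were lower, with a median of -0.09. Faah, the hydrolase that breaks down anandamide, stood at 42.3, 43.3 and 52.96 CPM in saline and at 25.8, 21.7, 30.4 and 18.0 CPM in ethanol. Its log2 fold change was -0.94 ± 0.18 (SE; edgeR FDR = 0.237, DESeq2 FDR = 0.00182) and stayed at -0.94 with the covariate, and Faah was 2.41 log2 units higher in cortex than in acute DS. Cnr1, the cannabinoid receptor CB1, overlapped, at -0.03 ± 0.26 (SE; edgeR FDR = 0.986).

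Potassium channels that ethanol is known to act on, the BK, SK and GIRK families, were lower in 10 of 12 genes, with a median of -0.30. DESeq2 called Kcnn3 higher and 3 genes lower, against 0.374% and 0.702% of all genes. Kcnj3, which encodes the GIRK1 subunit, stood at 93.2, 84.2 and 58.2 CPM in saline and at 45.7, 41.4, 53.5 and 32.3 CPM in ethanol, a log2 fold change of -0.86 ± 0.19 (SE; DESeq2 FDR = 0.00837), and -0.29 with the covariate. Kcnmb4, the neuronal beta subunit of BK channels, was at -0.75 ± 0.18 (SE; DESeq2 FDR = 0.0381), and 0.03 with the covariate. Kcnj6, which encodes GIRK2, was at -1.42 ± 0.42 (SE; DESeq2 FDR = 0.0982), and -0.77 with the covariate. All 3 were at least 2-fold higher in cortex than in acute DS, and Kcnma1, the pore subunit of BK, overlapped at -0.20 ± 0.11 (SE; edgeR FDR = 0.701), and -0.03 with the covariate.

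Genes of synaptic vesicle release were split, with 12 of 25 higher, 13 lower and a median of -0.01. At an unadjusted p under 0.05, 3 were higher and 5 lower, against 3.85% and 3.91% of all genes. Without overlap 2 were higher and 5 lower, against 5.79% and 5.22%. DESeq2 called Unc13c higher and 1 gene lower, against 0.374% and 0.702% of all genes. The gene called lower was Stx1a, a SNARE protein of the presynaptic membrane. It stood at 105, 113.3 and 61.1 CPM in saline and at 34.2, 57.9, 41.8 and 42.1 CPM in ethanol, a log2 fold change of -1.09 ± 0.22 (SE; DESeq2 FDR = 0.00181), and -0.13 with the covariate. Unc13b, another Munc13 form, was also lower in every ethanol library, at -0.64 ± 0.19 (SE; edgeR FDR = 0.437). The 2 Munc13 genes thus lay on opposite sides, and Unc13b was 1.80 log2 units higher in cortex than in acute DS, where Unc13c had a log2 ratio of -3.03.

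Of 15 postsynaptic scaffold genes, 10 were higher, with a median of 0.12. Shank3, a scaffold of corticostriatal synapses, stood at 348, 346 and 460.2 CPM in saline and at 493, 549.7, 479 and 577 CPM in ethanol, a log2 fold change of 0.45 ± 0.12 (SE; DESeq2 FDR = 0.0983). Dlgap1, a partner of PSD-95, stood at 334, 328 and 259.9 CPM in saline and at 212, 193, 246 and 174 CPM in ethanol, a log2 fold change of -0.58 ± 0.13 (SE; DESeq2 FDR = 0.0158), and -0.25 with the covariate. Of 63 axon guidance ligands and receptors, 24 were higher and 39 lower, with a median of -0.10, and 0.08 with the covariate. DESeq2 called 2 lower, against 0.702% of all genes, namely Epha5 and Plxna1, a semaphorin receptor, the second at -0.91 ± 0.25 (SE; DESeq2 FDR = 0.0545) and at -0.38 with the covariate. Plxna1 was 1.96 log2 units higher in cortex than in acute DS. Plxnd1, a plexin of direct pathway neurons, was higher with no overlap, at 0.38 ± 0.11 (SE; edgeR FDR = 0.437).

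Activity-induced early genes varied widely between mice. Of 24 genes, 11 were higher and 13 lower, with a median of -0.08. Bdnf, a neurotrophin that the cortex supplies to the striatum, stood at 9.61, 15.1 and 13.4 CPM in saline and at 2.82, 4.63, 2.54 and 0.752 CPM in ethanol, a log2 fold change of -2.25 ± 0.43 (SE; edgeR FDR = 0.237, DESeq2 FDR = 0.000282), and -1.08 with the covariate. Fos overlapped, at 28.7, 46.3 and 15.9 CPM in saline and 2.82, 44.8, 2.72 and 13.3 CPM in ethanol. Npas4, an activity-dependent transcription factor of neurons, did not overlap, at 43.3, 60.7 and 58.9 CPM in saline and 6.28, 39.9, 11.9 and 35.5 CPM in ethanol, a log2 fold change of -1.23 ± 0.49 (SE; edgeR FDR = 0.599), and -0.76 with the covariate.

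Of 20 genes of the glucocorticoid response, 14 were higher, with a median of 0.17. At an unadjusted p under 0.05 there were 5, all higher with no overlap, namely Tgm2, Fkbp5, Plin4, Sult1a1 and Mt1, where 3.85% of all genes were higher at that p and 5.79% were higher without overlap. Sult1a1, a sulfotransferase, stood at 4.74 and 8.23 CPM in saline and at 10.2, 11.3, 11.99 and 10.5 CPM in ethanol, and Mt1, a metallothionein, at 185 and 151 CPM in saline and 219.8, 195, 208 and 187 CPM in ethanol. Sgk1 and Tsc22d3, which glucocorticoids also induce, overlapped, with log2 fold changes of -0.09 ± 0.23 and 0.10 ± 0.12 (SE; edgeR FDR = 0.945 and 0.875). Within the list, then, a minority of genes stood apart between the groups and the others overlapped.

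Genes of the circadian clock were higher in 17 of 18 cases, against 46.8% of all genes, with a median of 0.24. Npas2, the partner of Bmal1 in forebrain, stood at 74.9, 76.9 and 67.4 CPM in saline and at 101.1, 107, 90.9 and 107 CPM in ethanol, a log2 fold change of 0.47 ± 0.10 (SE; edgeR FDR = 0.269, DESeq2 FDR = 0.0168), and 0.54 with the covariate. Tef, Bhlhe41, Cry2 and Rora also had an unadjusted p under 0.05 and no overlap, with log2 fold changes of 0.27, 0.39, 0.24 and 0.40. Over all genes, 3.85% were higher at that p and 5.79% were higher without overlap. Per2, a repressor of the clock, overlapped, with the ethanol libraries other than replicate 6 at 61.3 to 71.2 CPM and saline at 46.6 to 67.1 CPM, while ethanol replicate 6 stood at 143 CPM. With the covariate the list median was 0.03 and only Npas2 had an unadjusted p under 0.05.

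Genes of cholesterol synthesis were lower in 18 of 22 cases, with a median of -0.24 against -0.02 over all genes. The groups did not overlap for 9 of the 22, all lower, against 5.22% of all genes tested. Hmgcs1, which makes HMG-CoA, stood at 284, 335 and 293 CPM in saline and at 238, 213, 222 and 235 CPM in ethanol, a log2 fold change of -0.42 ± 0.09 (SE; edgeR FDR = 0.270, DESeq2 FDR = 0.0170), and -0.49 with the covariate. Fdps, which makes farnesyl diphosphate, was at -0.38 ± 0.12 and Sqle, squalene epoxidase, at -0.35 ± 0.12 (SE). None of the 22 was at least 2-fold higher in cortex than in acute DS, and with the covariate the median was -0.18 and 1 gene had an unadjusted p under 0.05.

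Genes of ethanol, acetaldehyde and acetate metabolism were lower in 10 of 13 cases, with a median of -0.13. DESeq2 called 0 of them, where it called 1.08% of all genes. Acly, the ATP citrate lyase that makes acetyl-CoA in cytosol and nucleus, was the only gene of the 13 at an unadjusted p under 0.05, where 7.76% of all genes were, at 0.26 ± 0.10 (SE; edgeR FDR = 0.574). Acss2, which makes acetyl-CoA from acetate, overlapped at -0.25 ± 0.15 (SE; edgeR FDR = 0.715), and Cat, catalase, which oxidises ethanol in brain, at -0.34 ± 0.16 (SE; edgeR FDR = 0.65). The 27 histone acetylation enzymes were split into 13 higher and 14 lower, with 0 at an unadjusted p under 0.05. Of 14 enzymes of H3K36 methylation, 11 were higher, with a median of 0.09, and Kdm4b, a demethylase, was the only gene at that p, at 0.39 ± 0.14 (SE; edgeR FDR = 0.553), so that none of these 3 lists held a larger share of such genes than the 7.76% of all genes.

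All 15 mitochondrially encoded transcripts were higher in ethanol, with a median of 0.20. Of the 15, 0 had an unadjusted p under 0.05, against 7.76% of all genes. The 2 saline libraries overlapped the ethanol libraries for every transcript. The chaperone list of 18 genes had a median of 0.05, the 22 genes of the unfolded protein response 0.03 and the 9 long noncoding RNAs -7.24e-05. Each held 0 DESeq2 calls, where 1.08% of all genes were called. With the covariate the medians of the mitochondrial, chaperone and unfolded protein response lists were -0.11, -0.32 and -0.38, below 0 in all 3. Miat was the noncoding RNA with the smallest p, at -0.76 ± 0.29 (SE; edgeR FDR = 0.593), and it was 2.34 log2 units higher in cortex than in acute DS.

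Markers of glial and vascular cells that a striatal punch can hold were examined next. Astrocyte markers had a median log2 fold change of 0.05, microglial markers 0.03, mural cell markers 0.07 and oligodendrocyte precursor markers -0.02. These 4 lists held 0 DESeq2 calls, where 1.08% of all genes were called. Their summed levels overlapped between the groups, for example 4238 ± 106 CPM in saline and 4420.1 ± 157 CPM in ethanol (SD) for 10 astrocyte genes led by the glutamate transporter Slc1a2. The 8 endothelial genes on complete chromosomes summed to 353, 312 and 370.0 CPM in saline and to 402, 414, 377 and 389 CPM in ethanol, without overlap, while 2 of 10 tested endothelial genes were higher at an unadjusted p under 0.05, against 3.85% of all genes. The endothelial median was 0.10, and -0.10 with the covariate. Myelin genes were lower in 14 of 16 cases, with a median of -0.09, and their sum overlapped. Of these 16, 2 were lower at an unadjusted p under 0.05, against 3.91% of all genes. Without overlap 3 were lower, against 5.22%. The lists for dentate granule, thalamic, ependymal and fibroblast cells had medians of -0.36, 0.54, -0.23 and -0.25, with 0, 1, 0 and 0 genes at an unadjusted p under 0.05, against 7.76% of all genes, and overlapping sums. The thalamic gene was Zfhx3, a transcription factor, with a log2 fold change of 0.80, which DESeq2 called higher.

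Among 15 interneuron markers, 9 were higher and 6 lower, with a median of 0.12. Chat, which makes acetylcholine in cholinergic interneurons, stood at 20.8, 15.7 and 27.4 CPM in saline and at 28.5, 35.1, 21.4 and 34.2 CPM in ethanol, with overlap (log2 fold change 0.48 ± 0.23, SE; edgeR FDR = 0.652). Vip and Cck, peptides that cortical interneurons and, for Cck, cortical excitatory neurons also make, were lower, at -2.81 ± 0.56 and -1.98 ± 0.45 (SE; DESeq2 FDR = 0.000667 and 0.208). Both were about 3 log2 units higher in cortex than in acute DS, at 3.13 and 2.97. With the covariate their log2 fold changes were -1.18 and -0.92.

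Genes that mark the ventral and medial striatum had a median of 0.72 over 8 members, 6 of them higher. Gpr83, an orphan-class peptide receptor, stood at 100.3 and 86.3 CPM in saline and at 135, 130.2, 139 and 122 CPM in ethanol, with no overlap and a log2 fold change of 0.49 ± 0.10 (SE; edgeR FDR = 0.269, DESeq2 FDR = 0.0165), and 0.65 with the covariate. Arhgap36 and Calcr, the calcitonin receptor, were low, at 5.45 CPM or less in every library, and Dlk1, the most abundant of the 4 markers on complete chromosomes, overlapped. The summed level of those 4 was 57.9, 25.1 and 11.0 CPM in saline and 38.6, 32.7, 76.0 and 17.0 CPM in ethanol. The sum overlapped between the groups. Of the 8 genes, 4 were higher at an unadjusted p under 0.05, against 3.85% of all genes, and 3 were higher without overlap, against 5.79%. With the covariate the list median was 2.28.

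Choroid plexus genes, which come from the lateral ventricle beside the DS, differed between mice far more than between treatments. The 7 genes on complete chromosomes, led by the thyroid hormone carrier Ttr, summed to 40.2, 2834 and 10489.7 CPM in saline and to 4539, 37.9, 4275 and 32.8 CPM in ethanol. The 10 genes of the list had a median of -0.93. Of these 10, 0 had an unadjusted p under 0.05, against 7.76% of all genes, and the groups overlapped for all of them. Over all genes, 5.79% were higher and 5.22% lower without overlap.

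**Figure D5:**
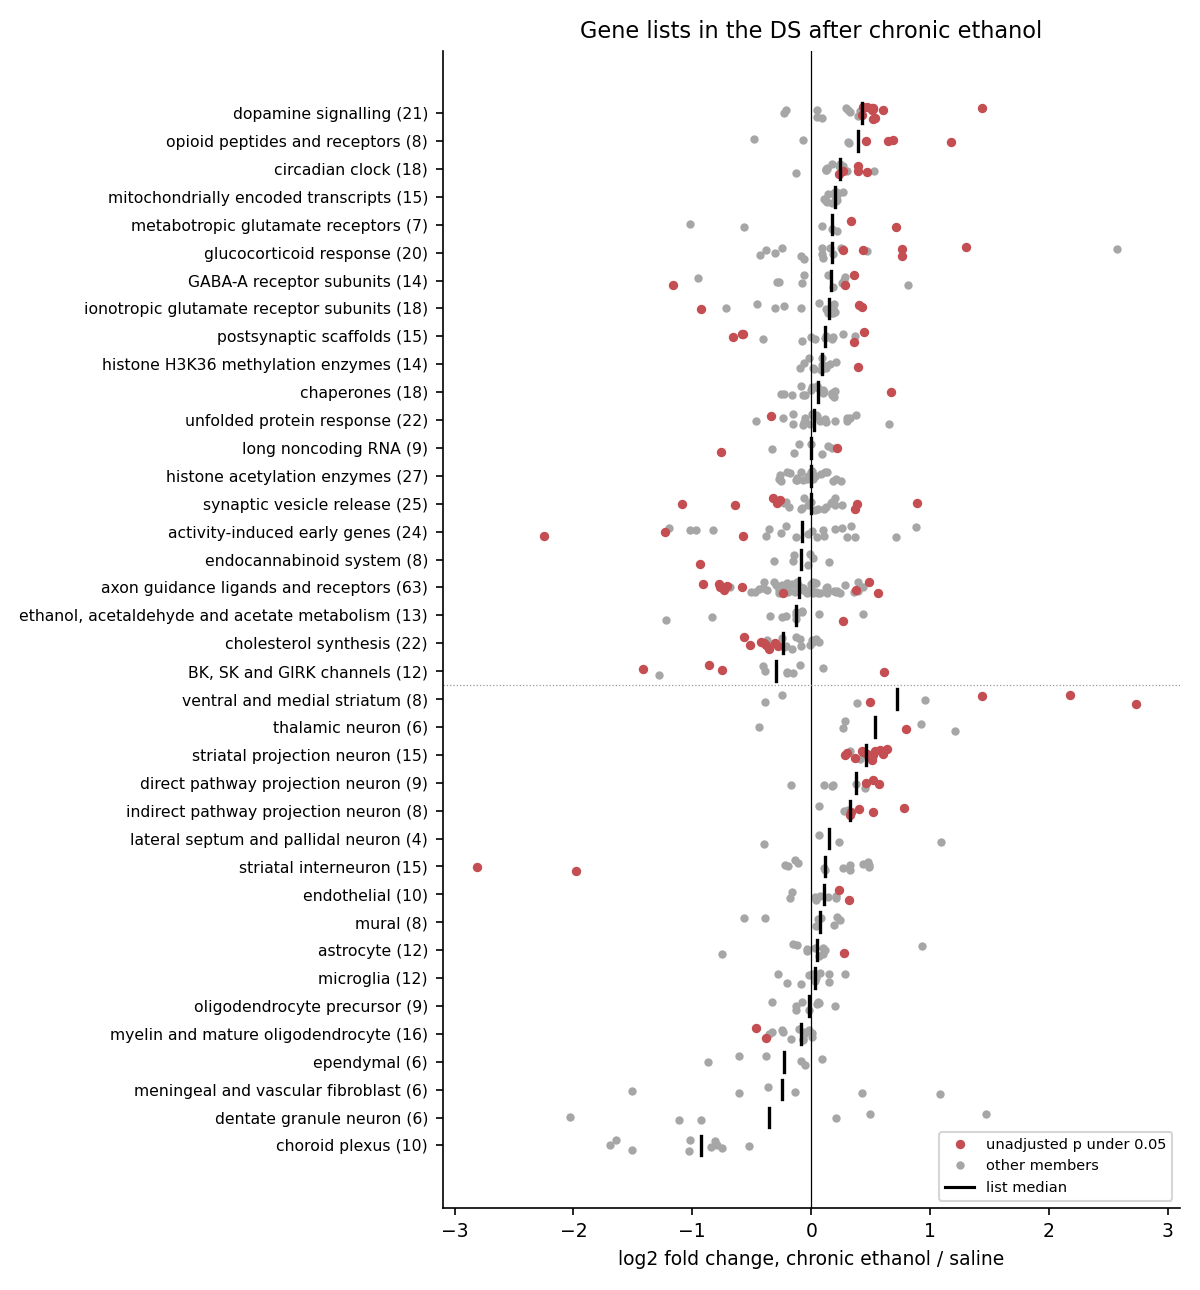
The log2 fold change of chronic ethanol over saline for each tested member (points) of 38 gene lists, with the list median (black bar), the number tested in brackets, functional lists above the dotted line and cell type lists below. Members at an unadjusted p under 0.05 are red. Projection neuron, dopamine and circadian genes lie mostly right of 0 and cholesterol synthesis genes mostly left. Choroid plexus genes lie left with 0 at that p, against 7.76% of all genes.

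At the level of transcript isoforms, edgeR called 22 of 108394 tested (0.0203%) at an FDR below 0.1, all of them lower in ethanol, and 8054 (7.43%) had an unadjusted p under 0.05. DESeq2 called 513 (0.473%), 119 higher and 394 lower. The 22 differentially expressed transcripts (DETs) came from 10 genes, with 4 each from Mfsd4a and Olfm1, 3 each from Epha5 and Gabra5, 2 each from Gpr22 and Nptxr and 1 each from Khdrbs3, Mical2, Neurod6 and Tmem178. Isoforms of a gene share reads, because a read pair was counted for every isoform it overlaps, so those of 1 gene are not independent. Leaving out saline replicate 2 or 3 or ethanol replicate 1, 5 or 6 gave 0 calls, and leaving out saline replicate 6 or ethanol replicate 4 gave 182 or 92. With the pallial covariate 0 isoforms passed, 2668 having an unadjusted p under 0.05.

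The isoform with the smallest p was ENSMUST00000023057 of Nptxr, at 417, 290.4 and 351 CPM in saline and 141, 182, 161 and 126 CPM in ethanol, a log2 fold change of -1.25 ± 0.16 (SE; edgeR FDR = 0.0831). ENSMUST00000068456 and ENSMUST00000206734 of Gabra5 were at -1.19 ± 0.14 and -1.19 ± 0.14 (SE), and ENSMUST00000113920 and ENSMUST00000028177 of Olfm1 at -1.20 ± 0.16 and -1.23 ± 0.16 (SE), each with an edgeR FDR of 0.0831. Their log2 fold changes lay close to those of their genes, at -1.21 for Nptxr, -1.16 for Gabra5 and -1.19 for Olfm1. Of the 208 genes behind the DESeq2 DETs, 41 had no DESeq2 call at the gene level.

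The study also asked whether the response to ethanol depends on exposure history, which was tested as the interaction of paradigm and treatment over the 13 DS libraries. EdgeR called 0 of 21120 genes (0%) at an FDR below 0.1, with 687 at an unadjusted p under 0.05 (3.25%). DESeq2 called 2 (0.00947%), the unannotated gene 4933407K13Rik and Spink8, a serine protease inhibitor, with interaction log2 fold changes of -1.37 ± 0.30 and -4.59 ± 1.03 (SE; DESeq2 FDR = 0.0967 for each). Grm4 had the third smallest p in edgeR, with an interaction log2 fold change of 0.59 ± 0.13 (SE; unadjusted p = 0.000363, edgeR FDR = 0.9999).

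In the same fit, which has separate saline mice for each paradigm, Grm4 had a log2 fold change of 0.73 after chronic and 0.14 after acute ethanol. Olfm1, Nptxr, Mfsd4a and Mical2 lay close in the paradigms, with acute log2 fold changes of -1.34, -1.03, -1.78 and -0.998. For Gabra5 the acute value was -0.50 ± 0.14 (SE) and for Gpr22 -0.38 ± 0.13 (SE), with unadjusted interaction p of 0.00415 and 0.0103 in edgeR and an FDR above 0.1. Fkbp5 had an acute log2 fold change of 0.81 ± 0.12 (SE; edgeR FDR = 0.0114), and its interaction p was 0.0479 before adjustment. Saline and ethanol libraries differed in the pallial level in both paradigms, as given above.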

How the data were processed

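The gene and isoform counts were made by the authors and deposited as raw counts. Reads were trimmed with Cutadapt 5.0, aligned to GRCm39 with STAR 2.7.10a and counted on Ensembl exons with featureCounts 2.0.6, reverse-stranded, and a pair with several alignments or several overlapping features added to all of them. The cortex libraries came from a kit without strand information. Columns were mapped to samples by name, over 56415 genes and 218795 isoforms.

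A feature was tested where 2 or more libraries of either group reached 5 counts, with edgeR 4.0.16 (limma 3.58.1, R 4.3.3, TMM, quasi-likelihood F test), in a fit of 7 libraries for chromosomes 1 to 5 and 10 to 19 and of 6 for the rest (14672 and 5405 genes), with Benjamini-Hochberg adjustment over both and an FDR threshold of 0.1. DESeq2 1.42.0 was the alternative tool. Biological coefficients of variation were 0.222 and 0.202. The pallial covariate was the mean log2(CPM + 1) of its 8 genes. Ratios of cortex to DS used a pseudocount of 0.1 CPM. The fits were tested on simulated counts, with no outcome of that step reported here.

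Genes were named as those with an FDR below 0.1 or, failing that, the 10 smallest p-values in each direction among genes with a mean CPM of at least 1 and no overlap, together with the 4 genes that the study followed and the members of the lists that their roles needed. Members and lists were chosen with earlier results of these data known. Lists are described by counts and medians, with no set test on their fold changes; the pallial level of the libraries was compared by an exact permutation test. No replicates agreed within sampling noise. Plots were drawn with matplotlib 3.10.9. Some items are not reported here.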

Additional observations from a re-analysis of the deposited data

Results flagged for a closer look

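The summed level of 3 lateral septum and pallidal neuron genes on complete chromosomes (Trpc4, Nkx2-1 and Gbx1) was 53.5 CPM in chronic ethanol replicate 5, far from the other 3 ethanol libraries, which held 22.9, 17.2 and 19.04 CPM. The gap was 0.845 of the range of the group, above the 95% critical value of Dixon's test for 4 samples. The saline libraries held 51.0, 26.7 and 24.4 CPM. Most of the sum was Trpc4, a cation channel of the lateral septum, at 44.6 CPM in ethanol replicate 5 and 42.6 CPM in saline replicate 2. Among 43 series of 4 values examined in this way this was the only 1, and chance alone flags about 1 in 20.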

How the results depend on the processing

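The count of DEGs was 0 by edgeR, and also 0 with DESeq2's size factors, with every library on every chromosome as deposited, with the pallial covariate, without genes at least 2-fold higher in cortex and, chosen after seeing the data, with only the genes within 2-fold. It was 216 with DESeq2, 326 with no low-count filter, 11 with at least 10 counts in every library, 8 on complete chromosomes only and 222 with all 4 DS groups in the fit. Leaving out 1 library at a time gave 0 to 51 DEGs, namely 51 without saline replicate 6, 20 without ethanol replicate 4, 2 without saline replicate 3 and 0 without the others. The 22 DETs became 513 with DESeq2, 937 with no low-count filter, 0 with all libraries as deposited and 0 with the covariate, and 0 to 182 with 1 library left out (182 without saline replicate 6, 92 without ethanol replicate 4, 0 without each of the others). The interaction gave 0 genes by edgeR, 2 with DESeq2, 102 with no low-count filter and 0 with any of the 7 chronic libraries left out; the acute libraries were not left out in turn. The cause of these changes was not tested.

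The pallial level, ethanol minus saline, was -15.0 percentage points, -1.68 (p = 0.0571, exact permutation test) as a mean log2 CPM, -17.9 points over all 11 genes without saline replicate 2 (p = 0.0667, exact permutation test, the smallest p that 6 libraries with 2 saline allow) and -16.3 on unscaled totals. It ranged from -17.6 to -13.1 with 1 library left out, where fewer assignments remain. Classes set against acute ethanol DS, also chosen after seeing the data, gave a median log2 fold change of 0.27 for the genes at least 4-fold lower in cortex and -0.38 for those at least 4-fold higher.

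No paired analysis was possible because saline and ethanol libraries come from different mice and the groups share only the number 6. Genes outside the complete chromosomes rest on 2 saline mice.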
